A study of Homo sapiens with 11 samples.

Results

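The 943 gene promoters with the highest level of H3K4me3 in untreated BEAS-2B cells are described here. They were chosen by their measured H3K4me3 level, as every promoter with 12 RPKM or more in the untreated library, out of 26237 listed gene promoters (3.59%). RPKM is the number of reads in the 4 kb around a transcription start site, per kilobase and relative to the total reads of the library. Because the untreated level chose the promoters, that level and every contrast with it are given as descriptions, without a test. BEAS-2B is an immortalised human bronchial epithelial line, and RT4 is a line from a human bladder tumour. BEAS-2B had 1 H3K4me3 ChIP-Seq library each of untreated cells (UT), of cells kept 6 weeks in 100 μM NiCl2 (Ni-E), and of nickel-washed-out cells (Ni-W). The Ni-W cells were a population grown from a single colony after the same exposure, and the labels give more than 6 months in nickel-free medium for this population beside a general washout of 2 weeks. RT4 had RNA-Seq of 2 replicates each of UT, Ni-E (6 weeks of 100 μM NiCl2) and Ni-W (2 weeks of washout). ChIP input libraries were not analysed here.

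H3K4me3 is trimethylation of lysine on the tail of histone H3, laid down by the SET1 and MLL methyltransferase complexes around the start sites of active or poised genes. The mark is broadest and highest at promoters rich in CpG dinucleotides, which are common at genes used by every cell and are often shared by genes that run in opposite directions. JmjC demethylases, which need iron and oxygen, remove it, and nickel is known to interfere with enzymes of that family.

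The recovered depth was 28385716 reads in UT, 37493942 in Ni-E and 29933506 in Ni-W. The share of the depth that lay in listed promoters was 37.6%, 36.0% and 22.9%, so the Ni-W library held less of its depth at promoters. Of the markers of bronchial basal epithelium, KRT5, KRT14 and TP63 stood at 0.22 to 0.396 RPKM in UT and 0 of 3 reached 1 RPKM. Of the general epithelial markers 5 of 6 reached 1 RPKM, and 5 of 5 mesenchymal markers did, at 4.55 to 14.6 RPKM. In RT4, 6 of 6 epithelial and 7 of 8 urothelial markers had at least 1 TPM in all 6 libraries, while 0 of 6 blood and 0 of 3 endothelial markers did. RT4 libraries held 17075833 to 27736454 estimated counts, and replicate 2 was the deeper in each group.

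Promoter sequences of 7 of the genes are shown to let the CpG content be seen, with every CpG in capitals. They are from RefSeq on GRCh38.p14, run from 250 bases before to 50 bases after the start site, and are written 5′ to 3′ on the strand of the gene. The first 3 are among the highest in UT, NR4A3 and BAG1 had the lowest Ni-W over Ni-E ratios, and ZNF207 and UGCG were among the highest by that ratio. IGF2BP2 lies at chr3:185824993-185825292 on the minus strand, MGME1 at chr20:17968768-17969067 on the plus strand, and IFT80 at chr3:160399176-160399475 on the minus strand. NR4A3 lies at chr9:99821635-99821934 on the plus strand and BAG1 at chr9:33264659-33264958 on the minus strand. ZNF207 lies at chr17:32349907-32350206 and UGCG at chr9:111896564-111896863, both on the plus strand.
IGF2BP2: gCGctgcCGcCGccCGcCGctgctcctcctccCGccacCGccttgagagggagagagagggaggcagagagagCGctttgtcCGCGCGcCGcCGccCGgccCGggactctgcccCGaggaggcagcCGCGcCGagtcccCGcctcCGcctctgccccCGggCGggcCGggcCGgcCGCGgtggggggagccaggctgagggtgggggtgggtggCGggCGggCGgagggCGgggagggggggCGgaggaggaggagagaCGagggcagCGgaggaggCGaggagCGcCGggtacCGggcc
MGME1: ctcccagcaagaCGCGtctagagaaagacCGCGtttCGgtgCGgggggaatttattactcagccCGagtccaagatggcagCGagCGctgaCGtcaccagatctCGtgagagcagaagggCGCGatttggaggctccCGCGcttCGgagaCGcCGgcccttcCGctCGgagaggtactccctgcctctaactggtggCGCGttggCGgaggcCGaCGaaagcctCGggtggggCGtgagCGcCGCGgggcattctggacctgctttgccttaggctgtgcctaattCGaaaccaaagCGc
IFT80: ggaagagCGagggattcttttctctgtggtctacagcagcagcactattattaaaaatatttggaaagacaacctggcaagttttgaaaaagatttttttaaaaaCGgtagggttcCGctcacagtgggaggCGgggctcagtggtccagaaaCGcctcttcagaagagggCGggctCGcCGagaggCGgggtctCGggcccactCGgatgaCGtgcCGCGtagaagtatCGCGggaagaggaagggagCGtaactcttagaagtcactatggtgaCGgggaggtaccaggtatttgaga
NR4A3: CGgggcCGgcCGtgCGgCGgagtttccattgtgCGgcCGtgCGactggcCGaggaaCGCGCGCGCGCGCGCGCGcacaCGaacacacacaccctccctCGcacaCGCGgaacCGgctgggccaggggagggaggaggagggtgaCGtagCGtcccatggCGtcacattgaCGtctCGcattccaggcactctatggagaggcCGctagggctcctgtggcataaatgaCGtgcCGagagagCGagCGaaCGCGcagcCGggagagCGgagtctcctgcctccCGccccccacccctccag
BAG1: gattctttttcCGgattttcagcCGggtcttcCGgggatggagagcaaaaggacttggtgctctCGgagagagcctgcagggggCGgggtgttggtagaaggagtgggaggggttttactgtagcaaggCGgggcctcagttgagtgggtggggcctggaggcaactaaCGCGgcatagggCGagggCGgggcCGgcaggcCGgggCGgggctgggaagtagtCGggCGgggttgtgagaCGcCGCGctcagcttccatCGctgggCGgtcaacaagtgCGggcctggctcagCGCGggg
ZNF207: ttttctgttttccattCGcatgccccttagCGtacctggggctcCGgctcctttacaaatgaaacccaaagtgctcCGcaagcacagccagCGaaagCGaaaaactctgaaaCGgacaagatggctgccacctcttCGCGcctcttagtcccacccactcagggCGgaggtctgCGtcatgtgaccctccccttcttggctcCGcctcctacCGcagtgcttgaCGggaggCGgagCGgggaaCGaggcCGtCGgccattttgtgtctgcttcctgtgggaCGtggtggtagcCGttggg
UGCG: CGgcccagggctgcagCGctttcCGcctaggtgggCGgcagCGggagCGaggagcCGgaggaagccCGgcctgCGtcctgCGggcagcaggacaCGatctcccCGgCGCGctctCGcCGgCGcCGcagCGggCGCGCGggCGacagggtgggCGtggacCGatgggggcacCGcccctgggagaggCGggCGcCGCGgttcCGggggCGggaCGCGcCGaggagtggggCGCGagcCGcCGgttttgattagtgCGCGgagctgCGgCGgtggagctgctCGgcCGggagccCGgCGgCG
The windows held 38, 32, 18, 38, 23, 21 and 48 CpG dinucleotides in the order shown, over GC contents of 80.7%, 63.0%, 52.0%, 69.7%, 66.0%, 59.3% and 79.0%. High H3K4me3 was therefore seen over quite different base compositions. Searched on both strands, the GC box (GGGCGG or CCGCCC) was present in 76.9% of the 759 windows of these genes in the RefSeq table, against 58.4% of all 17288 windows. The ETS core (CGGAAG or CTTCCG) was in 37.9% against 25.2%, and the YY1 core (ATGGCG or CGCCAT) in 24.0% against 14.3%. The TATA box (TATAAA or TTTATA) was in 5.4% against 9.42%. Promoters of 6 to under 12 RPKM, the next in level, had nearly the same shares, with 76.5%, 38.6%, 22.8% and 3.91% of 5040 windows.

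The level in UT ran from 12.004 to 25.8 RPKM with a median of 13.5 RPKM, from 1363 to 2934 reads per promoter. IGF2BP2, an RNA-binding protein that stabilises mRNAs, was the highest at 25.8 RPKM (95% Wilson interval 24.9 to 26.8), followed by 22.7 RPKM in Ni-E and 14.0 RPKM in Ni-W. MGME1, a mitochondrial DNA exonuclease, had 24.2, 22.2 and 15.6 RPKM in UT, Ni-E and Ni-W, and shares its promoter with SNX5 at 24.0 RPKM in UT. IFT80, a subunit of the intraflagellar transport complex, had 22.5, 21.1 and 12.4 RPKM, and its neighbour SMC4, a condensin subunit, had 21.1 RPKM in UT. ACTG1, cytoplasmic gamma actin, had 21.5, 18.7 and 9.48 RPKM. DYRK1A, a protein kinase, had 20.8, 18.9 and 12.02 RPKM. METTL4, a methyltransferase, had 20.8, 19.5 and 11.8 RPKM. The snoRNA gene SNORD2 had 21.9 RPKM in UT, within 4 kb of EIF4A2 at 20.4 RPKM.

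The threshold fell in a dense part of the range. TOMM70A, SRR and POLR1C were just inside at 12.004 RPKM each, and MYL6 (11.995 RPKM), ARHGEF12 and CKS2 (11.987 RPKM each) were just outside. Counting error alone spans this border. For 241 of the 943 promoters the 95% interval reached below 12 RPKM, and for 316 promoters outside it reached 12 RPKM.

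**Figure D1:**
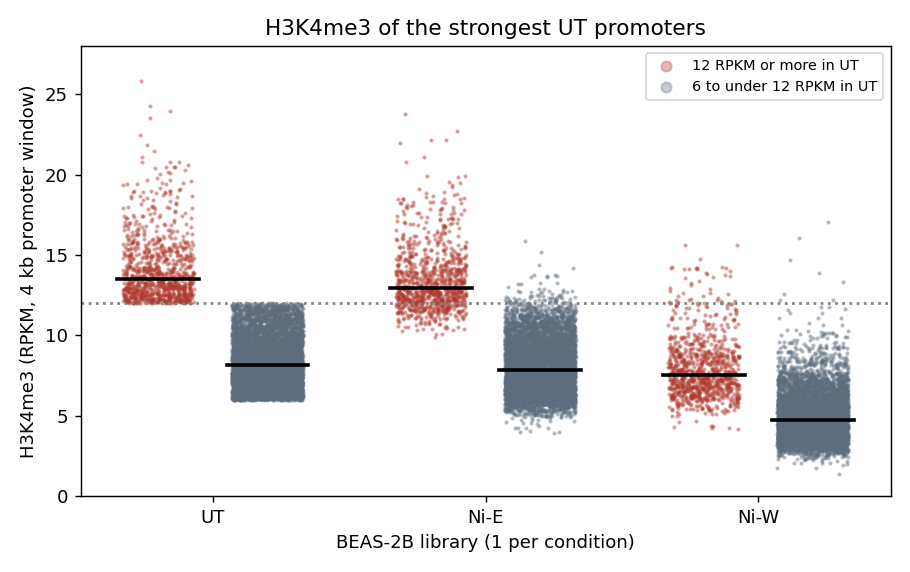
H3K4me3 (RPKM, vertical axis) in the 3 BEAS-2B libraries for the 943 promoters at 12 RPKM or more in UT (red) and the 6293 promoters at 6 to under 12 RPKM in UT (grey), each point a promoter and each bar a median. The red medians were 13.5, 12.9 and 7.56 RPKM in UT, Ni-E and Ni-W, and the grey ones 8.15, 7.84 and 4.71 RPKM.

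The positions of 916 of the 943 promoters were found in GENCODE version 44, and 811 of these belonged to protein-coding genes, 60 to lncRNAs, 21 to snoRNAs and 20 to miRNAs. A partner gene starting within 2 kb on the opposite strand and running away was present at 48.1% of them, against 28.7% of the 6 to under 12 RPKM promoters and 13.8% of all positioned promoters. Another listed start site lay within 4 kb of 60.3% (37.4% and 23.4% in the other sets), so the 916 positions formed 657 separate sets. Between the 205 divergent pairs in which both genes were members, the median absolute log2 difference in UT was 0.0086, since such neighbours share most of the same 4 kb window. The 4 kb windows had a median GC content of 53.6% against 51.6% and 50.2% in the next and in all promoters. The median ratio of observed to expected CpG was 0.668, against 0.601 and 0.482.

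Members were spread unevenly over chromosomes. Chromosome 17 held 199 of the 916, which was 14.7% of its listed promoters, followed by chromosomes 18 (9.97%), 20 (9.5%), 5 (7.84%), 3 (7.21%) and 21 (7.19%). Chromosome 14 held 0 of its 810 listed promoters, and chromosomes 4, 15 and X held 1 each. Promoters with almost no H3K4me3 also differed between chromosomes. The 8560 background promoters, which had over 0 and under 0.6 RPKM in every library, had UT medians of 0.291 RPKM on chromosomes 17 and 20 and 0.322 RPKM on chromosome 21, against 0.159 RPKM on chromosomes 4, 15 and X and 0.176 RPKM on chromosome 14. Across 23 chromosomes, the share of promoters at 6 RPKM or more that reached 12 RPKM followed the background median with a Pearson r of 0.89 and a Spearman rho of 0.85. This is a description across chromosomes of 1 library, which share its depth, and differences in DNA copy number between chromosomes of the line were not tested. When each UT level was divided by the background median of its chromosome, a choice made after seeing the data, 564 of the 916 promoters stayed among the 916 highest. Chromosome 17 then held 77 of those, chromosome 2 held 112 (34 before) and chromosome 4 held 48 (1 before).

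**Figure D2:**
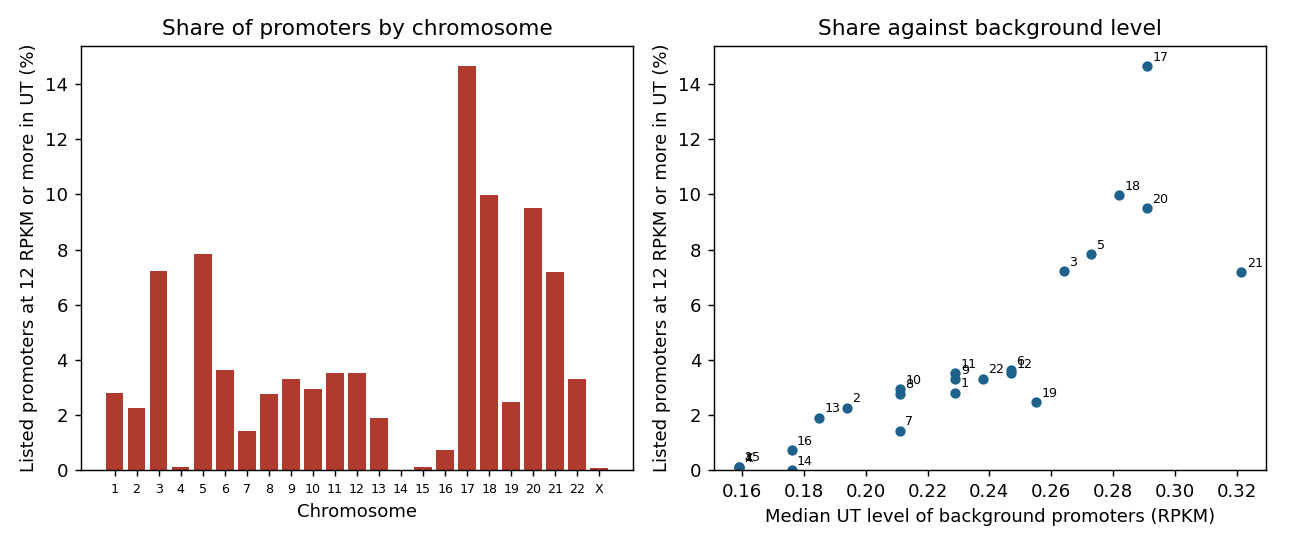
Left, the percentage of listed promoters with 12 RPKM or more in UT on each chromosome. Right, the same percentage against the median UT level (RPKM) of background promoters on that chromosome, each point a chromosome. The Pearson r of 0.89 is for another quantity, the share of promoters at 6 RPKM or more that reached 12 RPKM. Chromosome 17 is highest at 14.7% and chromosomes 4, 14, 15 and X are at or close to 0.

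Under nickel, these promoters kept almost their full level. Of the 943, 746 still had 12 RPKM or more in Ni-E, 819 were among the 943 highest there, and 943 were in its top 10% of promoters. The median level was 12.9 RPKM (range 9.90 to 23.8), and the median log2 ratio of Ni-E over UT was -0.07, which became 0.11 when each library was divided by its median promoter. The library median itself moved by -0.18 on the log2 scale. In neither direction did any of the 943 pass 1.5-fold (0 lower and 0 higher), where 1.23% of 13701 promoters were that much lower and 0.263% higher. After division by the library medians the count was again 0 and 0, against 0.394% lower and 0.65% higher. The members with the lowest ratios were MST1P2, a pseudogene (14.9 RPKM in UT, 11.96 in Ni-E), TRIM37, a ubiquitin ligase (13.1 and 10.6), and MAP4K3, a kinase (13.6 and 11.1). The highest were 3 snoRNA genes that guide RNA modification: SNORD12B (12.1 and 15.8 RPKM), SNORD74 (12.5 and 15.3) and SNORD43 (13.1 and 15.99). The 23 snoRNA and snRNA members had a median log2 ratio of 0.15, higher in Ni-E than the -0.07 of all members, and all 5 members among snoRNA host genes had a ratio above 0, GAS5 (12.1 and 14.4 RPKM), SNHG1 (16.4 and 17.9) and ZFAS1 (16.1 and 17.3) among them. Host genes carry snoRNA genes within them, so windows of both lists can hold the same reads. The lists are therefore not separate observations. No test of these ratios was made.

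In Ni-W the level was lower at nearly every one of them. The median was 7.56 RPKM (range 4.21 to 15.6), 41 of 943 had 12 RPKM or more, and 528 were among the 943 highest promoters of Ni-W, with 889 in its top 10%. The median log2 ratio over UT was -0.90, which is 1.87-fold lower. Of the members, 790 were at least 1.5-fold lower than in UT, that is 83.8% against 71.9% of the same 13701 promoters. After each library was divided by its median 187 were (19.8% against 18.4%). At least 1.5-fold higher were 0 (1.1% of the 13701), or 3 after that division (3.39% of the 13701). A lower level in Ni-W was thus common to promoters in general. The promoters of 6 to under 12 RPKM had a median log2 ratio of -0.84.

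Ni-W against Ni-E does not use the untreated library, but each condition had 1 library, so no test could be made. The median log2 ratio was -0.81 for the members and -0.77 for the next set. At least 1.5-fold lower were 729 of 943 (77.3%, against 64.6% of the 13701), or 370 (39.2% against 30.7%) after division by the library medians. At least 1.5-fold higher were 0 (1.39% of the 13701), or 2 after the division (3.06% of the 13701). The ratio of 925 members lay below 0 by more than its counting interval, and that of 5 above 0. In the next set of 6293 promoters, 6021 lay below and 70 above. Of the 25209 listed promoters with a ratio, 14994 lay below and 2144 above. The promoters in Ni-W held 22.9% of its depth against 36.0% in Ni-E, and the part of this in the ratios was not tested.

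The lowest ratios were on chromosome 9. NR4A3, an orphan nuclear receptor, had 12.9 RPKM in Ni-E and 4.21 in Ni-W, a log2 ratio of -1.62 (95% counting interval -1.76 to -1.48). BAG1, a co-chaperone, had 12.6 and 4.27 RPKM, and CHMP5, an ESCRT subunit on the same promoter, had 12.5 and 4.24 RPKM. RGP1, a Golgi trafficking protein, and GBA2, a glucosylceramidase that shares its promoter, had 12.1 and 4.34 RPKM and 12.2 and 4.38 RPKM. The 6 members between 30 and 40 Mb of chromosome 9 had a median log2 ratio of -1.48, and the 39 promoters of 6 to under 12 RPKM there had -1.32. Between 70 and 80 Mb, 4 members had -0.17. NR4A3 lies outside the first of these stretches, between 90 and 100 Mb, where the 5 members had a median of -0.51 and the 28 promoters of 6 to under 12 RPKM had -0.48, so its ratio stood below those of its neighbours.

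The highest ratios were at MIR632 and ZNF207, which share a promoter on chromosome 17, at TRIM37 and MIR21 on chromosome 17, and at UGCG on chromosome 9. ZNF207, a spindle assembly protein, had 12.3, 11.6 and 14.2 RPKM in UT, Ni-E and Ni-W. MIR21 had 12.6, 12.3 and 13.9 RPKM. Its mature product is shown for identity, with the seed (bases 2 to 8) in capitals, from RefSeq at chr17:59841273-59841294 on the plus strand of GRCh38.p14.
hsa-miR-21-5p: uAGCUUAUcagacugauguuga
UGCG, the enzyme that makes glucosylceramide, had 14.0, 12.6 and 14.1 RPKM. On chromosome 17, the 68 members at 0 to 10 Mb and the 25 at 10 to 20 Mb had median ratios of -1.04 and -0.97, and the 22 at 50 to 60 Mb had -0.62. Background promoters at 0 to 10 Mb had medians of 0.407 RPKM in Ni-E and 0.225 in Ni-W, and at 50 to 60 Mb of 0.323 and 0.238, so both marked and unmarked promoters had lower levels in Ni-W there. Over UT, the lowest Ni-W levels were again at NR4A3 and CHMP5, and at USP43, a deubiquitinase on chromosome 17 (13.3 RPKM in UT, 4.62 in Ni-W). Leaving out chromosome 17 moved the median ratio of Ni-W over Ni-E from -0.81 to -0.79.

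**Figure D3:**
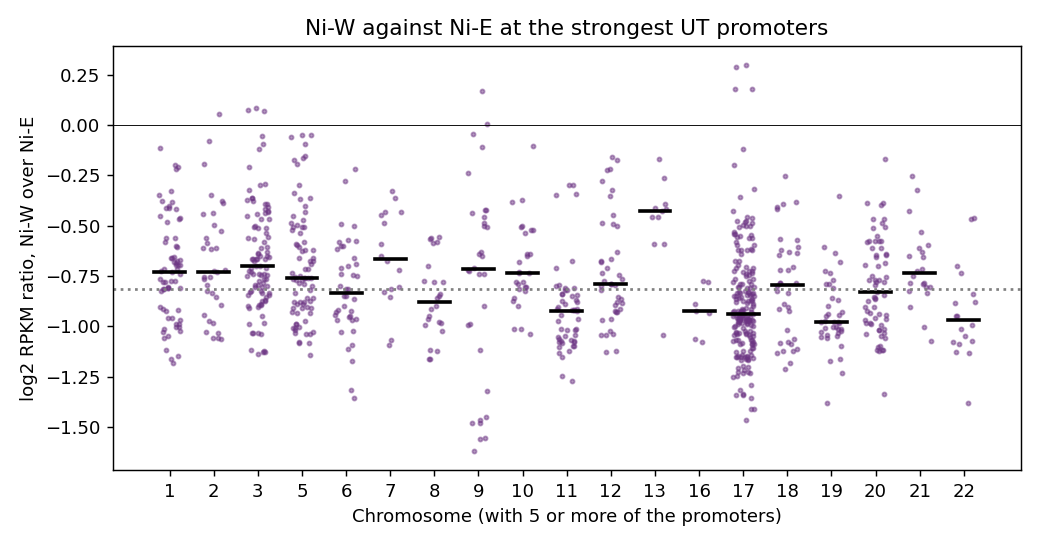
The log2 RPKM ratio of Ni-W over Ni-E for each of the promoters on chromosomes with 5 or more of them, with chromosome medians as black bars and the median of all 943 dotted at -0.81. Nearly all points lie below 0, and a group on chromosome 9 lies lowest, near -1.5.

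The functions of the genes were described with fixed lists. Several housekeeping lists held a larger share of members than all listed genes did, without a test. All listed genes include many with little H3K4me3 (median 1.57 RPKM in UT), so a list of marked genes can exceed their share. Of the listed cytoplasmic ribosomal protein genes, which build the ribosome, 17 of 82 (20.7%) were members against 3.59% of all listed genes, and 71 of 82 were at 6 RPKM or more. Among the 17, the medians in UT, Ni-E and Ni-W were 12.95, 13.3 and 7.22 RPKM, with RPL26 at 16.003, 16.3 and 7.88 RPKM. Translation factors gave 10 of 71, led by EIF4A2 (20.4 RPKM) and EIF4A3 (18.0 RPKM), helicases of initiation and of the exon junction complex. Splicing factors and hnRNPs gave 22 of 188 (11.7%), with DDX5 at 20.3 RPKM and SRSF2 at 19.3 RPKM in UT. Mitochondrial ribosomal proteins gave 5 of 81, respiratory chain subunits 9 of 92 and proteasome subunits 5 of 47. Chaperones gave 8 of 103 and ubiquitin enzymes 11 of 151. At 6 RPKM or more in UT were 49, 59, 31, 60 and 67 of these, in that order. Translation factors had 48 there, and splicing factors and hnRNPs 123. Over all listed promoters, 943 members stood beside 6293 of 6 to under 12 RPKM. Whether a list exceeded the share of members among promoters at 6 RPKM or more was not tested. These lists were matched by name, so the proteasome members include the assembly chaperones PSMG1 and PSMG2, the respiratory chain members the antisense lncRNA NDUFV2-AS1, and the splicing members the readthrough genes HNRNPUL2-BSCL2 and RBM14-RBM4. Within these lists, MRPL47 and NDUFB5 stood apart with 14.1 RPKM each in Ni-W after 13.4 in Ni-E. Their levels were nearly equal (14.14 and 14.11 RPKM in Ni-W). Their windows may hold the same reads, so they are not taken as separate observations.

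Immediate early and AP-1 genes gave 9 of 35 (25.7%): ATF4, CYR61, DUSP1, FOSL2, JUN, JUNB, KLF6, MCL1 and MYC, mostly transcription factors and regulators that respond quickly to growth signals and stress. FOSL2 was highest with 17.1, 15.3 and 8.83 RPKM, and MYC had 14.0, 14.0 and 7.26 RPKM. Cytoskeleton and adhesion genes gave 10 of 35 (28.6%), including ACTG1, PFN1 (profilin, 16.5 RPKM in UT) and MYL12B (myosin light chain, 17.5 RPKM). Cyclins, CDKs and cell division genes gave 25 of 171 (14.6%), with CDKN2A at 17.6 RPKM and KIF20A at 16.3 RPKM. That list was also matched by name and caught CDC37, CDC40 and CCNL1, which have other roles, and the antisense lncRNAs CDKN2B-AS1 and KIF9-AS1. The list of H3K4 methyltransferase complex and KMT2 family genes gave 4 of 18 (HCFC1, KMT2A, KMT2E and SETD1B). KMT2E stood in it by its family name, not as a complex subunit. JmjC demethylases gave 2 of 20 (JMJD6 and KDM2A). TGF-beta response genes gave 3 of 20 (SKI, SKIL and SMAD7), HIF targets 2 of 36 (ADM and GAPDH) and EMT genes 1 of 25 (CDH2).

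Several groups had few or none. Replication-dependent histones gave 0 of 73, clustered HOX genes 0 of 39, olfactory receptors 0 of 395 and metallothioneins 0 of 10. ZNF genes gave 7 of 527 (1.33%), LINC lncRNAs 5 of 889 and miRNA genes 21 of 1915. Antisense lncRNAs gave 43 of 998 (4.31%), and small nucleolar and nuclear RNAs 23 of 524 (4.39%), close to the 3.59% of all listed genes. At 6 RPKM or more in UT were 132 miRNA genes, 294 antisense lncRNAs and 92 small nucleolar and nuclear RNAs. Most promoters of these lists thus lay lower, and the shares do not describe the marked ones alone. The snoRNA host genes gave 5 of 25 (20.0%).

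The RT4 RNA of these genes was measured in another cell line and was not used to choose them. Of the 943, 935 were found in the RT4 table. At least 1 TPM in all 6 libraries was listed for 823 (88.0%, Wilson 95% interval 85.8 to 90%). The share was 86.1% in the next set and 46.4% of all listed genes. The interval treats genes as independent and does not cover the spread between cultures. Among protein-coding genes the shares were 95.4%, 93.2% and 59.3%. At least 100 TPM in all 6 was reached by 151 (16.2%), against 10.7% and 4.68%. The median of the mean TPM was 26.7 for the members, 20.0 for the next set and 0.985 for all listed genes. The members thus exceeded the median of all listed genes in RT4 by far and the next set by little.

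GAPDH, the glycolytic dehydrogenase, was highest with a mean of 12842 TPM, followed by FTH1, the ferritin heavy chain, with 7292 TPM, and, among others, by RPL8 (6019 TPM), RPL30 (5114), RPS21 (4668), RPS25 (4252) and RPL7A (4138). All 17 ribosomal protein members had at least 1 TPM in all 6 libraries, with a lowest mean of 540 TPM. In contrast, 81 members had under 1 TPM in all 6, and 48 of them were listed at 0 in all 6. The highest of these in UT H3K4me3 were SNORD2, MIR636, which lies within 4 kb of the SRSF2 start, DLG1-AS1, FLJ31356 and MIR1292, which lies within 4 kb of NOP56. The 20 miRNA members in the RT4 table had a highest mean of 0 TPM. Of 23 snoRNA and snRNA members, 2 had at least 1 TPM in all 6. Whether these libraries kept RNAs this short was not tested, so the values do not show that such genes were silent. CDKN2A, with 17.6 RPKM in BEAS-2B, was listed at 0 in all 6 RT4 libraries. CDH2, at 14.6 RPKM in BEAS-2B, had 0.20 to 1.35 TPM in RT4.

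**Figure D4:**
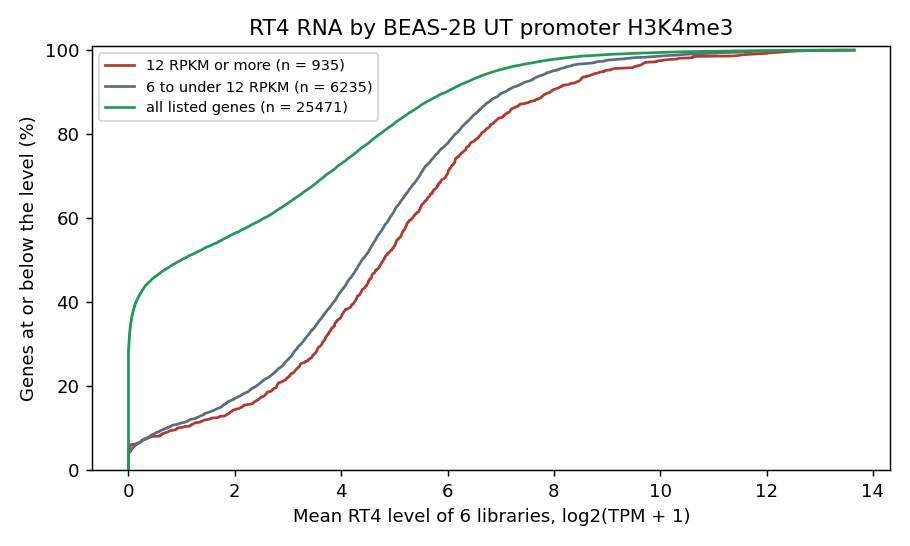
Cumulative percentage of genes (vertical axis) at or below a mean RT4 level, log2(TPM + 1), for genes at 12 RPKM or more in BEAS-2B UT (red), at 6 to under 12 RPKM (grey) and for all listed genes (green). The red and grey curves lie close together, with median levels of 26.7 and 20.0 TPM, and both lie to the right of the green curve at 0.985 TPM.

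Few of these genes were called as changed in RT4 by the main fit, and more by a fit with the replicate number as a block. A gene was called where edgeR's quasi-likelihood test over 14502 genes, 861 of them members, gave at least 1.5-fold and a p below 0.05 after Benjamini-Hochberg adjustment. In Ni-E against UT 6 members rose (0.697%, against 1.45% of all genes tested) and 0 fell (0.71% of all). In Ni-W against UT 2 rose (0.232%, against 0.503%) and 0 fell (0.0965% of all). In Ni-W against Ni-E 0 were called by edgeR, where 0.0% of all genes were, and 27 of 861 had an unadjusted p below 0.05 (5.57% of all genes). The same count was 45 in Ni-E against UT (12.2% of all) and 42 in Ni-W against UT (9.12% of all). DESeq2 called 16, 11 and 3 members in the 3 contrasts, of which 3, 1 and 1 fell. No share over all genes is given for DESeq2, so these counts cannot be set against a general rate. In a fit with the replicate number as a block, 42 rose and 11 fell in Ni-E against UT (7.64% and 5.0% of all genes), 33 and 9 in Ni-W against UT (5.79% and 2.78%), and 15 and 9 in Ni-W against Ni-E (2.72% and 1.8%). In each contrast and direction of both edgeR fits, the share of members called was at or below that of all genes, and the difference was not tested.

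The 6 that rose in Ni-E were IGF2BP2, PLOD2, ADM, POLH, TYMS and CDK6. IGF2BP2, the highest promoter in BEAS-2B UT, had 0.15 and 0.02 TPM in the 2 UT replicates of RT4, 4.68 and 3.77 in Ni-E and 3.32 and 1.68 in Ni-W. The groups did not overlap, as the rule for naming called genes required, and the edgeR log2 fold change of Ni-E over UT was 5.86 (SE 0.68, adjusted p = 0.0228). Its size rests on the near-zero UT level, with 7.79 without UT replicate 1 and 4.91 without UT replicate 2 (adjusted p = 0.0374 and 0.0648), and 2.27 by limma on log2(TPM + 1). PLOD2, a collagen lysyl hydroxylase, had 4.34 and 3.21 TPM in UT, 47.3 and 34.9 in Ni-E and 29 and 12.4 in Ni-W (edgeR log2 fold change 3.43 in Ni-E, SE 0.35, adjusted p = 0.0169). ADM, the vasodilator peptide adrenomedullin and a HIF target, had 61.9 and 64.6 TPM in UT, 299 and 333 in Ni-E and 198 and 238 in Ni-W (edgeR 2.30, SE 0.29, adjusted p = 0.0266). In all 3 genes both Ni-E replicates lay above both UT replicates, which follows from that rule for genes that rose.

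POLH, the translesion DNA polymerase eta, had 7.27 and 6.12 TPM in UT, 20.3 and 16.1 in Ni-E and 24.7 and 15.3 in Ni-W. It was called in both contrasts with UT by edgeR, with log2 fold changes of 1.43 (SE 0.19, adjusted p = 0.0300) and 1.5 (SE 0.19, adjusted p = 0.0466). TYMS, thymidylate synthase, had 162 and 110 TPM in UT and 323 and 277 in Ni-E (edgeR 1.14, SE 0.18, adjusted p = 0.0456). CDK6, a cell cycle kinase named after its values were seen, had 0.09 TPM in both UT replicates, 0.98 and 0.84 in Ni-E and 0.99 and 0.48 in Ni-W. It was the other gene called in Ni-W, with edgeR log2 fold changes of 3.29 (SE 0.36, adjusted p = 0.0203) and 2.89 (SE 0.36, adjusted p = 0.0460). Without UT replicate 1, UT replicate 2, Ni-E replicate 1 or Ni-E replicate 2, the edgeR count of 6 became 1, 0, 0 and 0. The count of 2 in Ni-W was 0 or 1 without any single replicate of the 3 groups.

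**Figure D5:**
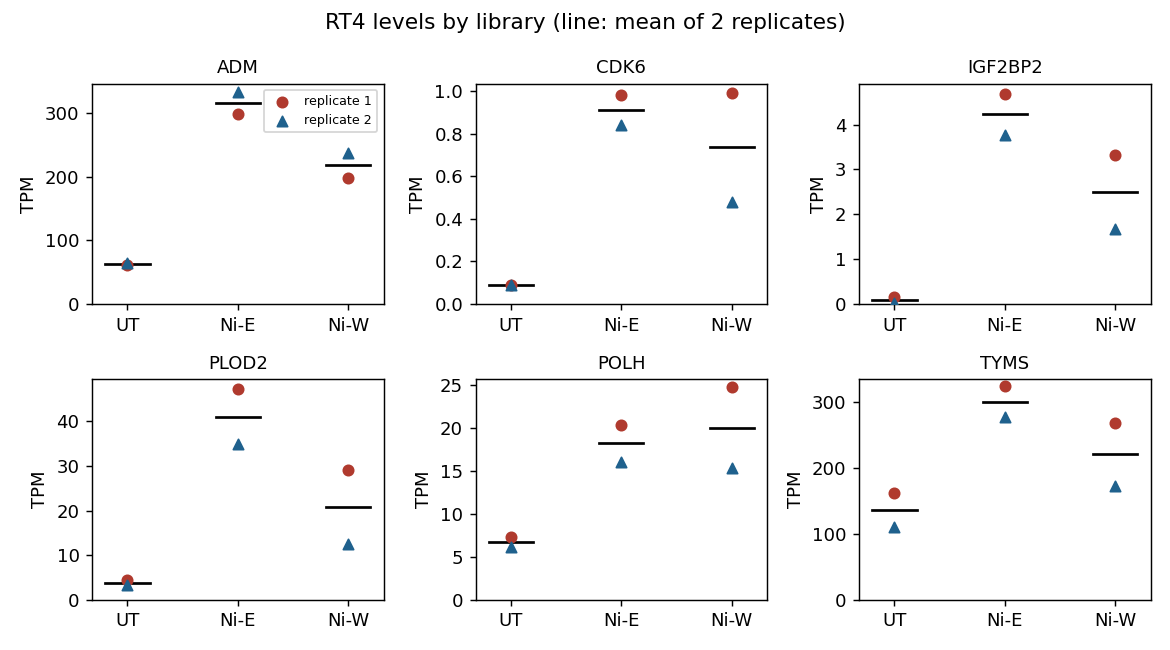
TPM in each RT4 library (points, replicate 1 red circles and replicate 2 blue triangles) with the mean of the 2 replicates as a line, for the 6 genes called in Ni-E against UT. Both Ni-E replicates lie above both UT replicates in every panel, as at ADM with 299 and 333 against 61.9 and 64.6 TPM. The rule for naming called genes required this of every gene but CDK6.

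Several more were called only with the replicate block, which shows genes whose same-numbered replicates moved alike. MYC had 66.4 and 23.5 TPM in UT, 158 and 65.6 in Ni-E and 64.3 and 20.9 in Ni-W, so UT and Ni-E overlapped, while both Ni-E replicates lay above both Ni-W replicates. Its edgeR adjusted p for Ni-W against Ni-E was 3.63e-05 with the block (log2 fold change -1.52, SE 0.10) and 0.918 without. JUN had 111 and 137, 173 and 189, and 69.2 and 110 TPM in UT, Ni-E and Ni-W (edgeR with the block, Ni-W against Ni-E -1.08, SE 0.15, adjusted p = 0.00260). DUSP1, a MAP kinase phosphatase, had 72.5 and 40.9, 93.3 and 56.4, and 26.5 and 22.9 TPM (edgeR with the block, -1.58, SE 0.18, adjusted p = 0.000713). These were 3 of the 9 members in the immediate early list that fell in Ni-W against Ni-E under the block, where 1.8% of all genes did, and the list was not tested.

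In the cell division list, 3 of 25 members rose and 0 fell in Ni-W against Ni-E under the block, against 2.72% and 1.8% of all genes, and in Ni-E against UT 3 rose and 3 fell, against 7.64% and 5.0%. The list was not tested. The 3 that rose in Ni-W against Ni-E were KIF20A, AURKA and CDC25C. KIF20A, a kinesin of cytokinesis, had 50.4 and 48.5 TPM in UT, 26.6 and 25.96 in Ni-E and 59.0 and 55.8 in Ni-W. With the block its edgeR log2 fold change was -0.92 in Ni-E against UT (SE 0.11, adjusted p = 0.000228) and 1.09 in Ni-W against Ni-E (SE 0.11, adjusted p = 0.000394). AURKA, the mitotic Aurora A kinase, had 55.0 and 47.4, 31.3 and 33.1, and 64.4 and 55.4 TPM (edgeR with the block, 0.85 in Ni-W against Ni-E, SE 0.11, adjusted p = 0.00189). CDC25C, a phosphatase of mitotic entry, had 10.6 and 10.3, 7.26 and 7.53, and 13.8 and 12.02 TPM (edgeR with the block, 0.77, SE 0.15, adjusted p = 0.0162).

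Among other genes called with the block, ADAMTS1, a secreted protease, had 27.0 and 15.9, 77.9 and 50.2, and 46.1 and 23.6 TPM in UT, Ni-E and Ni-W. RELL2, a member of the RELT family, had 10.6 and 10.6, 5.59 and 5.31, and 7.27 and 6.42 TPM. PTRF, the caveolar coat protein cavin, had 1.47 and 1.2, 2.57 and 3.17, and 5.09 and 3.97 TPM. By edgeR with the block, ADAMTS1 and PTRF rose in Ni-E against UT (log2 fold changes 1.58 and 1.12, adjusted p = 3.35e-06 and 0.00538) and RELL2 fell by 0.99 (adjusted p = 0.00188). The chromatin in BEAS-2B and the RNA in RT4 were from different lines, so no promoter level and RNA level were compared within the same cells.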

How the data were processed

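For ChIP-Seq, the authors aligned 50-nucleotide reads to hg38 with BWA, converted the alignments with SAMtools and bedtools and removed redundant reads beyond the first. They skipped peak calling and measured promoters directly. Deposited values are promoter RPKM, over 2 kb on each side of the start site. The methods speak of 2 biological replicates, and the files hold 1 library per condition. Reads and depth were recovered from the RPKM steps (100.0% of values lay within 0.00051 RPKM of a whole multiple of 1 read, which is worth 0.00667 to 0.00881 RPKM), so 95% Wilson intervals cover counting error only. Ratios and the authors' chromatin dynamic score (CDS), the difference of square roots of RPKM over the library median, were computed without a test. The RNA-Seq files deposited by the authors hold estimated counts from RSEM beside TPM and FPKM (the last not used). The methods name STAR and hg19, the labels GRCh38, and which gave these files is not stated. The estimated counts were rounded and tested with edgeR 4.0.16 in 1 model of 3 groups without a block (TMM, filterByExpr). Alternatives used DESeq2 1.42.0 and limma 3.58.1. The methods call the RNA-Seq replicates biological.

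The replicate numbers come from the sample titles. Same-numbered deviations from group means correlated at 0.794, 0.878 and 0.791 between the 3 groups, so the blocked fit is given beside the results. The members, lists and tests were chosen with earlier results of these data known. Named genes were the 8 highest in UT (1 per set of start sites within 4 kb), 3 on each side of the threshold, 5 at each end of the Ni-W over Ni-E ratio and 3 at each end of the others, and in RT4 the 8 highest, 5 of the most marked under 1 TPM, and up to 5 rising and 5 falling calls per contrast whose mean reached 5 CPM and whose groups did not overlap, plus members of fixed lists. Some genes that this rule names are not reported here. In simulated data for the RT4 fit of 14502 genes, 49 of 100 genes changed 3-fold and 93 of 100 changed 8-fold were called. With them, 15 unchanged genes were called. The simulated replicates were drawn independently, without the shared replicate deviations of the real libraries, so these rates need not hold for them.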

Additional observations from a re-analysis of the deposited data

How the results depend on the processing

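In BEAS-2B, scaling set the sign in Ni-E against UT: the median CDS of the members was 0.112, but -0.0897 without median scaling and -0.0228 after quantile normalization, and the median log2 ratio of -0.07 became 0.11 when each library was divided by its median promoter. In Ni-W against UT the median CDS of -0.397 was -0.99 without scaling, -0.20 after quantile normalization and -0.54 as a log2 ratio of (RPKM + 1), and the log2 ratio of -0.90 became -0.41 and -0.20 under library medians and quantiles. In Ni-W against Ni-E the median CDS of -0.499 was -0.895 without scaling and -0.17 after quantile normalization, and the log2 ratio of -0.81 became -0.50 and -0.17. The other limits of 10 and 15 RPKM, 1 gene per set of start sites, and leaving out chromosome 17 (added after seeing the data) kept these directions. The share of members with at least 1 TPM in all RT4 libraries used was not computed at 10 RPKM or for 1 gene per set. It was 88.1% at 15 RPKM and 87.6% without chromosome 17. Without replicate 1 and without replicate 2 it was 88.3% and 88.9% (826 and 831 members). At 0.5 and 5 TPM in all 6 it was 89.6% and 76.5%, and by the mean of the 6 libraries 89.8%. In RT4, against 6, 2 and 0 members called in Ni-E against UT, Ni-W against UT and Ni-W against Ni-E, the replicate block gave 53, 42 and 24, and DESeq2 gave 16, 11 and 3. Shares over all genes are given only for the edgeR fits with and without the block. In Ni-E against UT, limma on log2(TPM + 1) and on log2(TPM + 0.1) gave 3 each, members at 15 RPKM gave 3, and leaving out 1 replicate gave 0 to 7. In Ni-W against UT, no filter gave 6, fitting only the 2 groups gave 0, members at 15 RPKM gave 0, and leaving out 1 replicate gave 0 to 1. In Ni-W against Ni-E, limma on log2(TPM + 0.1) gave 2 and leaving out 1 replicate gave 0. Of the fold changes of single RT4 genes under these alternatives, 55 kept their call and 45 kept their direction but lost it, all called genes losing it without at least 1 replicate. With 1 ChIP library per condition, spread between cultures is unknown.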
